A study of Mus musculus with 12 samples.

Results

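Distal regions called only on sorted chromosomes are places in the mouse genome where open chromatin was called on isolated mitotic chromosomes of embryonic stem cells (ESCs). None of them had a peak in a library of asynchronous or mitotic cells. They were found by merging the overlapping or touching peaks of all 12 libraries on the autosomes and X, keeping merged regions with a peak in at least 3 of the 4 sorted-chromosome libraries and in 0 of the 8 cell libraries, and leaving out every region within 1 kb of the transcript start of a protein-coding gene. Of 231395 merged regions 6422 passed, which is 2.78% of all regions, 3.43% of the 186996 distal regions and 5.52% of the 116253 distal regions with a peak in any sorted-chromosome library. The regions were thus chosen by the authors' peak calls in these libraries, so their presence on sorted chromosomes and absence from cells is a description and was not tested. They are called chromosome-only distal regions here.

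The libraries came from WT ESCs (line WT26) and from Suv39h dn ESCs (line DN57), which lack the histone methyltransferases Suv39h1 and Suv39h2. The study gives both lines as male. Both lines were assayed by ATAC-seq as nuclei of asynchronous cells and as cells arrested in metaphase with demecolcine and collected by shake-off. They were also assayed as chromosomes released from such mitotic cells with polyamines, labelled with the DNA dyes Hoechst and Chromomycin A3 and sorted by flow cytometry. Libraries of the asynchronous nuclei and of mitotic cells are together called cell libraries. There were 2 libraries in each of the 6 groups. Each genotype was 1 line, so a difference between genotypes cannot be told apart from one between lines. Between mitotic cells and chromosomes, release, staining and sorting cannot be told apart from the removal of the rest of the cell. Asynchronous samples also differ by their lysis to nuclei. Nothing in the labels says that the 2 libraries of a group came from separate cultures, so their spread may be technical.

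In ATAC-seq the Tn5 transposase inserts adapters into exposed DNA, and short fragments pile up over stretches free of nucleosomes. In interphase most such stretches lie at promoters and at enhancers bound by transcription factors. When chromosomes condense in mitosis, many factors leave and transcription largely stops, while some factors stay bound or rebind quickly, which is termed bookmarking. Constitutive heterochromatin, which carries H3K9 methylation, is built on repeated DNA, much of it near centromeres, and tandem repeats are also found as shorter arrays along the chromosome arms.

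Many of the strongest chromosome-only distal regions lay on short units repeated head to tail. The 4 windows that follow, each with 100 bp on either side of the summit, belong to regions chosen for their rank in the authors' fold enrichment or for their length. They are read 5′ to 3′ from the plus strand of GRCm38 (mm10), and the capitals mark 1 repeat unit. The region in an intron of Sgk3, which encodes a serine/threonine kinase, was shown at chr1:9874309-9874509 and had a unit of 41 bp. The region 7708 bp from the start of the transcription factor gene Klf10 was shown at chr15:38308426-38308626 and had a unit of 6 bp. That in an intron of Osbp2, an oxysterol-binding protein gene, was shown at chr11:3809349-3809549, with a unit of 38 bp, and belonged to the longest region of the set (1040 bp). The next longest (1032 bp), in an intron of Eif4g3, which encodes a translation initiation factor, was shown at chr4:138044222-138044422 and also had a unit of 38 bp.
Sgk3 intron: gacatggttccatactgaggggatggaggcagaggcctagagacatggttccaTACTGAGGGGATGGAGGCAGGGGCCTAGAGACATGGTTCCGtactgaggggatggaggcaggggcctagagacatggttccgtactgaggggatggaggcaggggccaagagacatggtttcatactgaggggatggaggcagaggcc
Klf10 flank: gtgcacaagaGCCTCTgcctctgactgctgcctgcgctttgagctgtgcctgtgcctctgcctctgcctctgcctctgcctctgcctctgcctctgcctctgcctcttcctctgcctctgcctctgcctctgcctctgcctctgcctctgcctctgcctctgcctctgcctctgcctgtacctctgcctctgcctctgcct
Osbp2 intron: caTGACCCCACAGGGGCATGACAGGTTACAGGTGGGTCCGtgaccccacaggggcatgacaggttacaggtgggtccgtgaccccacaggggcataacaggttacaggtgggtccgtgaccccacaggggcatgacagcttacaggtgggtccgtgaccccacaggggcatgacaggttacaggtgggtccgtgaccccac
Eif4g3 intron: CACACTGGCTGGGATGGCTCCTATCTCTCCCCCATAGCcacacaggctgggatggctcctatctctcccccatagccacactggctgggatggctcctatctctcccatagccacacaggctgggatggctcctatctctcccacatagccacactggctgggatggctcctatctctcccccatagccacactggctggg

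Not every strong region was a tandem repeat, and repeats dispersed through the genome formed another class. The window of the tenth-ranked region, at chr8:69419594-69419794 inside a gene that is not protein-coding, had no such unit and no CG dinucleotide. Its sequence was not unique, with a median of 8 copies in the genome. The other 2 windows belonged to the largest and to the fourth-largest family of regions that aligned to each other, at chr3:10810107-10810307 and chr1:148302062-148302262. In these 3 windows the capitals mark each CG dinucleotide, the site of DNA methylation.
Tenth-ranked region: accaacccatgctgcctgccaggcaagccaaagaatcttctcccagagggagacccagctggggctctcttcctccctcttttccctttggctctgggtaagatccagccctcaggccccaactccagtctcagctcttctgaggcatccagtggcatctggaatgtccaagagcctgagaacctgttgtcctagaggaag
Largest family: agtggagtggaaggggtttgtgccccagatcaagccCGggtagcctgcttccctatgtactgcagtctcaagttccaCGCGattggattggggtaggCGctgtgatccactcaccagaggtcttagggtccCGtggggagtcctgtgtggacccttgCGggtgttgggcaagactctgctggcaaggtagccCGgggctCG
Fourth-largest family: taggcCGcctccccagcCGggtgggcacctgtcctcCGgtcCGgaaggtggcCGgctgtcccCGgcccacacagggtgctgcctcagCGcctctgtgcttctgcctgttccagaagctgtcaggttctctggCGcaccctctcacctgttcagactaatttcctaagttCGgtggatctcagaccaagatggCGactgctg

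How often the libraries called these regions was described first. The WT libraries 1 and 2 called 4791 (74.6%) and 5826 (90.7%) of the 6422 regions, and the Suv39h dn libraries 1 and 2 called 5448 (84.8%) and 5081 (79.1%). All 4 libraries called 1880 regions (29.3%). The remaining regions lacked a call in 1 library, which was WT library 1 for 1631, Suv39h dn library 2 for 1341, Suv39h dn library 1 for 974 and WT library 2 for 596. The background, a measure of relative depth, was 0.187 and 0.328 fragments per base in WT libraries 1 and 2 and 0.198 and 0.268 in Suv39h dn libraries 1 and 2, and the lists held 45486, 66022, 58894 and 44552 peaks. WT library 2 had the most of both and missed the fewest regions, while the other 3 libraries did not follow the background in order.
The values of the genotypes are a description, with no test, since the rule used the same calls and let a region lack at most 1 of them, which keeps every share high. The mean share of the regions called was 82.7% ± 11.4 (SD, n = 2) for WT against 82.0% ± 4.04 for Suv39h dn, a difference of -0.685 points. Among the 1880 regions called in all 4 libraries, a choice that leaves out regions lost in 1 genotype, the mean log2 of the fold enrichment was 2.43 and 2.58 for WT against 2.50 and 2.57 for Suv39h dn, a difference of 0.03.

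Most chromosome-only distal regions rested on few fragments, as did the peaks of the sorted-chromosome lists as a whole. A peak's fold enrichment and p-value together fix how many fragments cover its summit. The median was 6 and 8 in WT libraries 1 and 2 and 6 and 7 in Suv39h dn libraries 1 and 2, against a minimum of 3 or 4 anywhere in these lists. In the same order it was 5, 7, 5 and 6 over all peaks and 6, 8, 6 and 8 for the shared regions defined below. Between 16.6% and 32.2% of the peaks of chromosome-only distal regions, depending on the library, reached a q-value of 1e-05. The highest recovered counts at their summits were 89, 102, 96 and 101 fragments in the same order of libraries. Such a count rises with the background as well as with the fold enrichment. The median fold enrichment was 4.93 and 5.27 for WT against 5.01 and 5.38 for Suv39h dn. In the ranking of each list by fold enrichment the median region stood at the percentiles 67.3, 67.4, 71.8 and 64.4. The 3010 shared distal regions, called in at least 3 sorted-chromosome libraries and in at least 1 cell library, stood at 81.8 to 87.8.

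**Figure D1:**
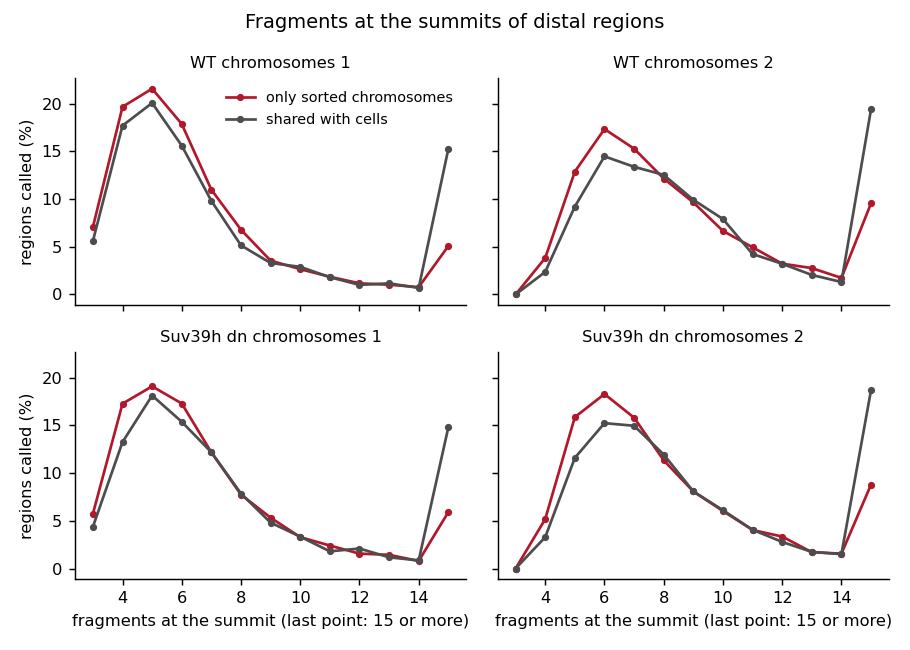
Share of the distal regions called in each of the 4 sorted-chromosome libraries (y axis, %) by the fragments at the summit (x axis), for regions called only on sorted chromosomes (red) and shared with cells (grey). The last point gathers the summits with the most fragments, and the grey line ends above the red one in every panel.

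The regions were short. The median merged length was 187 bp (quartiles 142 and 254 bp, range 66 to 1040 bp). In 5008 regions (78.0%) at least 1 base lay inside the peaks of every library that called the region, and the summits of the libraries lay within a median of 69 bp. Among shared regions, merged in the same way, these values were 71.9% and 78 bp, and merging itself places the peaks of a region together. With no peak in cells, 85490 distal regions were called in 1 sorted-chromosome library, 14522 in 2, 4542 in 3 and 1880 in 4, so the larger part of the chromosome-only calls was not shared between libraries.
A library that had no part in the choice gives a check of the rule. Regions called in the other 3 sorted-chromosome libraries and in 0 cell libraries were called in the remaining one in 53.2% of 3489 cases for WT library 1 (exact 95% binomial interval 51.5 to 54.8, which covers counting error only), 75.4% of 2431 for WT library 2, 65.4% of 2826 for Suv39h dn library 1 and 57.8% of 3184 for Suv39h dn library 2. Regions called in only 1 of the other libraries were found again in 8.65% to 14.1%, and shared regions in 75% to 89.7%.
Absence from cells depended on the cell library. When a cell library was left out of the rule, it held a peak in 0.0933% (Suv39h dn mitotic library 1) to 13.7% (Suv39h dn asynchronous library 2) of the regions that then passed. The first is the shortest list of all, with 1729 peaks, and the second the longest, with 80126. In the WT asynchronous library 2, the other long cell list (56760 peaks), the share was 2.58%, and in each of the remaining 5 cell libraries it was between 0.218% and 0.742%.

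**Figure D2:**
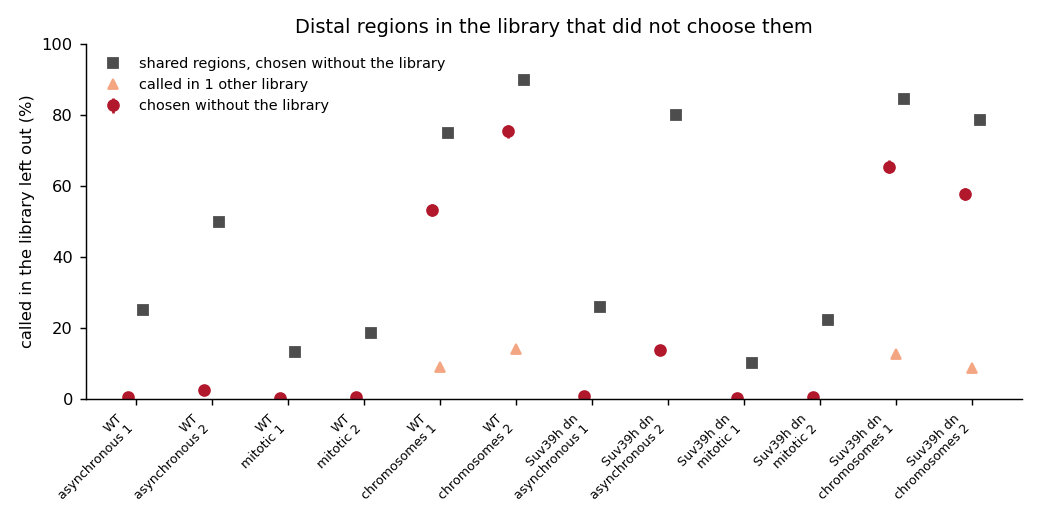
Share of distal regions (y axis, %) called in the library named on the x axis when that library took no part in choosing them. Red points with 95% binomial intervals are chromosome-only regions, grey squares shared regions and light triangles, for sorted-chromosome libraries, regions called in 1 other library; red points lie at 53.2% to 75.4% for sorted chromosomes and at 0.0933% to 13.7% for cells.

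The summits were rich in G and C. The mean GC content of the summit window (100 bp on either side) was 57.4% over the 6422 regions, 60.1% over the shared regions and 49.7% over the 15949 distal regions called in at least 3 cell libraries and in 0 sorted-chromosome libraries (cell-only distal regions, 8.53% of distal regions). Over all windows of that size in the genome it was 41.8%. From the 10th to the 90th percentile the regions spanned 51.7% to 63.2% GC, a band that held 81.5% of them and 10.0% of the genome's windows. Only 300 regions (4.67%) lay under 50% GC, against 53.0% of the cell-only regions. The GC content rose with the number of sorted-chromosome libraries that called a region without a peak in cells, from 54.8% for 1 library to 56.6% for 2, and was 57.4% for 3 and 57.3% for 4.
The ratio of observed to expected CG dinucleotides, which takes the GC content into account, averaged 0.246. This mean was above the 0.225 of cell-only regions, but the medians were 0.188 and 0.190. It was below the 0.502 of shared regions and the 0.607 of the 3374 chromosome-only regions within 1 kb of a protein-coding start. For the genome a ratio pooled over all bases, not a mean of windows, was 0.191. Within each of the 4 sorted-chromosome libraries the chromosome-only regions lay below the shared ones in GC content, by -2.61 percentage points on average (SD 0.0642), and in the CG ratio, by -0.253 (SD 0.00502). Both differences had the same sign in 4 of 4 libraries (exact sign-flip permutation test over the libraries, two-sided p = 0.125, the smallest it can give). Both sets had to be called in at least 3 of these libraries. The libraries thus measured mostly the same regions, and the agreement in sign was largely given by the rule. Restricted to peaks with a q-value of at most 1e-05, the GC difference changed sign, to 1.53 points, and the CG ratio difference was -0.220. The GC order also turned among single-copy regions (defined below), at 56.8% for chromosome-only, 56.2% for shared and 49.9% for cell-only regions. Their CG ratios were 0.214, 0.393 and 0.227 in the same order.

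**Figure D3:**
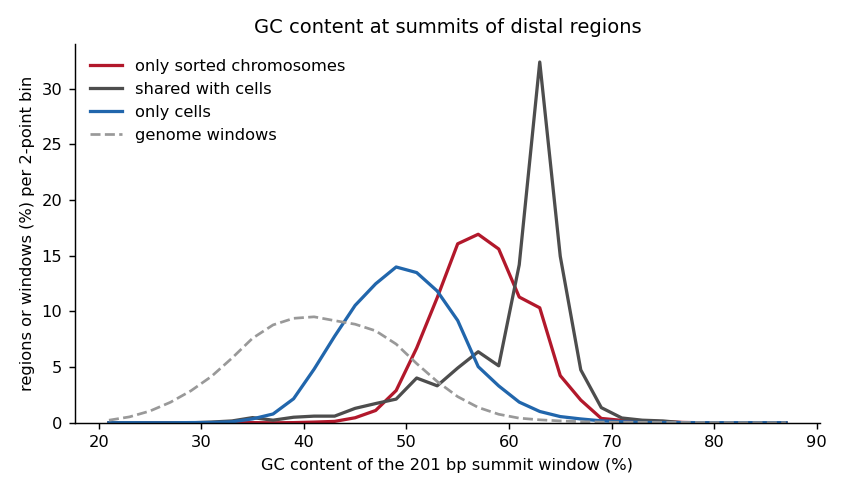
Distribution of the GC content (x axis, %) of the summit windows, as the share of regions or windows in each bin (y axis, %). Chromosome-only distal regions (red, mean 57.4%) lie between cell-only regions (blue, 49.7%) and the sharp peak of shared regions (grey, 60.1%), all above the genome (dashed, 41.8%).

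Several motifs of transcription factors were less frequent under these summits than in cell-only and all distal regions, as they were in shared regions. A motif was sought on both strands of the summit window, and a match describes letters, not binding. The CTCF motif (CTCF is the main insulator protein) was in 14 of the 6422 windows (0.218%), against 4.28% of cell-only regions and 1.54% of all 186996 distal regions. The octamer ATGCAAAT read by Oct4, a core pluripotency factor, was in 10 (0.156%), against 4.28% and 1.72%. The Sox motif AACAATG was in 0.95% against 5.05% and 2.49%, the AP-1 motif TGANTCA in 2.97% against 8.52% and 5.37%, and the Tead motif GGAATGT in 1.82% against 5.25% and 3.06%. The Esrrb motif TNAAGGTCA, read by the orphan receptor Esrrb, was in 60 windows (0.934%), against 1.62% of cell-only and 1.41% of all distal regions. For the Klf and Sp motif GGGNGGGGC the share was 2.38% against 5.08% and 3.29%. In the shared regions the shares were 0.664% for CTCF, 0.365% for the octamer, 0.498% for Sox, 2.06% for AP-1, 0.930% for Tead, 0.332% for Esrrb and 2.59% for Klf and Sp, so those of Sox, AP-1, Tead and Esrrb lay below the chromosome-only ones.
For the E-box and Zfp57 motifs the shares were close to those of distal regions as a whole. The E-box CACGTG was in 3.18% (3.21% of all distal regions) and the Zfp57 motif TGCCGC in 3.97% (3.82%). The NRF1 motif was in 0 windows, which allows a share of up to 0.0467%, and in 0.0487% of all distal regions. Since base composition sets how often a motif occurs, the shares were also taken within the GC band of 51.7% to 63.2%. There CTCF was in 0.268% of chromosome-only and 6.10% of cell-only regions, the octamer in 0.134% and 2.16%, Sox in 0.879% and 3.45%, AP-1 in 2.92% and 7.40%, and Klf and Sp in 2.54% and 8.80%. Tead was in 1.99% and 4.12%, Esrrb in 0.783% and 1.29%, the E-box in 3.21% and 4.45%, and Zfp57 in 3.82% and 6.52%.

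Tandem repeats were counted after the strongest sequences had been seen. A window was taken as tandem if at least 80% of its bases matched the base 1 unit further on, for a unit of at most 80 bp. This held for 505 chromosome-only distal regions (7.86%), with a median unit of 27 bp, for 3.65% of shared regions and for 0.251% of cell-only regions. In 122 of the 505 the unit was at most 6 bp long. Among chromosome-only regions, the only set split by rank, tandem windows were concentrated at high fold enrichment. They made up 16 of the 50 regions with the highest mean percentile of fold enrichment (32%), 48 of the next 150, 142 of the next 800 (17.8%) and 5.51% of the remaining 5422. Their mean GC content was 58.5% and their CG ratio 0.112, against 57.3% and 0.257 for the other windows, and 42.2% of them were called in all 4 libraries against 28.2% of the others. Of the 10 strongest regions named by rank 3 were tandem by this definition, 4 more matched at over 70% of bases in interrupted repeats, and the other 3 matched at 35.1% to 58.4%, the lowest being the tenth, printed above.

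**Figure D4:**
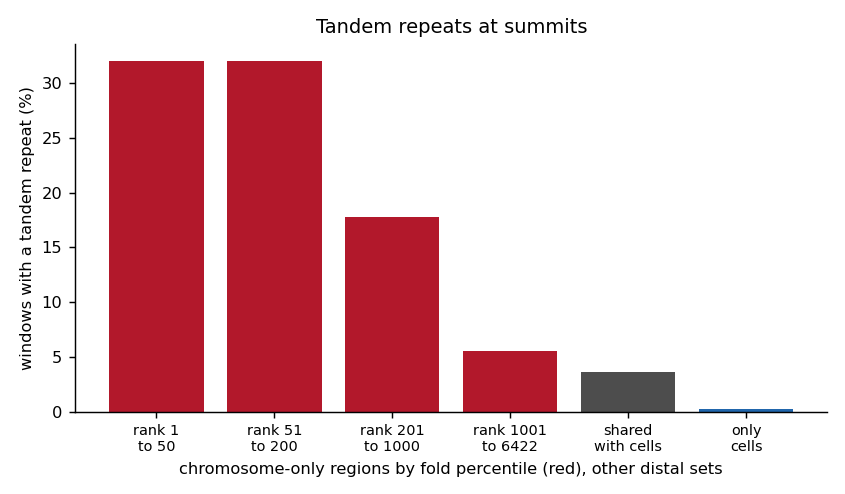
Share of summit windows that are a tandem repeat (y axis, %), for chromosome-only distal regions in 4 groups by their rank of fold enrichment (red) and for shared (grey) and cell-only (blue) distal regions. The share falls from 32% in the first 50 regions to 5.51% after rank 1000. It is 3.65% and 0.251% in the other sets, which were not split by rank.

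The values of the named repeats show how the libraries compared at single regions. The Sgk3 repeat (chr1:9874206-9874517) had a fold enrichment of 21.9 and 27.7 in WT libraries 1 and 2, against 23.3 and 21.3 in Suv39h dn libraries 1 and 2. The Ptprn2 repeat (chr12:116678199-116678458) in an intron of Ptprn2, which encodes a receptor protein of secretory granules, had 23.4 and 26.2 for WT against 10.4 and 14.3 for Suv39h dn and a unit of 27 bp, with 32, 39, 12 and 18 fragments. Both WT values lay above both Suv39h dn values there, and the region was singled out after its values were seen. The Klf10 flank (chr15:38308414-38308686) had 26.9 and 19.3 for WT against 25.1 and 15.4 for Suv39h dn, where the library numbered 1 was the higher one in both genotypes. The Osbp2 repeat (chr11:3809276-3810315) had 7.68, 6.11, 5.94 and 5.92 in the same order. The highest mean rank of all belonged to chr14:8501842-8501985 in an intron of 4930452B06Rik, with 23.6, 26.9, 30.6 and 33.6. The tenth-ranked region (chr8:69419635-69419762) had 14.5, 17.4, 15.2 and 13.6. Of the regions that lacked a call in 1 library, the strongest missing from a Suv39h dn library was a telomeric array at chr6:133169962-133170087, with 15.0 and 18.1 for WT and 11 for Suv39h dn library 2, and the strongest missing from a WT library another such array at chr10:129735469-129735539, with 27.2 for WT library 2 and 14.2 and 23.4 for Suv39h dn.
Arrays of the telomeric unit were few and uneven in strength. A window with the 12-letter telomere repeat occurred in 12 chromosome-only regions (0.187%), in 91 shared regions (3.02%), in 4 cell-only regions and in 0.0941% of all distal regions. The 12 regions held 4 to 25 copies of the unit CCCTAA or its complement, had a GC content of 41.3% to 52.2% and stood at percentiles of fold enrichment from 53.1 to 99.7, and 7 were called in all 4 libraries.

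Repeats were nevertheless less frequent under chromosome-only distal regions than under shared ones. Bases that the reference marks as repeats made up 34.9% of their windows, 70.6% of the shared, 24.2% of the cell-only and 34.3% of all genome windows, and the difference from shared regions was -35.7 points (SD 0.545, same sign in 4 of 4 libraries, exact sign-flip permutation p = 0.125). The libraries share most of the regions by the rule, so their agreement was largely given. With peaks at a q-value of at most 1e-05 the difference was -11.1 points. By the median number of times that the 31-base words of a window occur in the genome, 4150 regions (64.6%) were single copy, 1252 had 2 to 20 copies and 1020 had more. Among shared regions 24.7% and among cell-only regions 90.2% were single copy. Among the chromosome-only regions the share was 30% in the 50 with the highest mean percentile of fold enrichment. It was 16% in the next 150, 40.25% in the next 800 and 69.9% in the remaining 5422. Single-copy chromosome-only regions had a GC content of 56.8% and a CG ratio of 0.214, and 24.7% of them were called in all 4 libraries, against 37.6% of those with more copies. The sources used here do not say how read pairs that fit several places equally well were treated, so the position of a multi-copy region is uncertain.
Alignment to each other (at least 80% identity over at least 100 bp) joined 2619 regions (40.8%) to another chromosome-only region and 1483 (23.1%) to a shared one, while 3740 (58.2%) aligned to no other region of the chromosome-only, shared or cell-only sets. There were 261 families, of which 15 had at least 20 regions. The largest held 518 regions on all 20 chromosomes, with a GC content of 62.0%, a CG ratio of 0.567 and a median of 1597 copies, and all 518 aligned to a shared region. The next had 290 regions with a GC content of 53.8% and a CG ratio of 0.0920, of which 27.2% lay on chromosome 8. A family of 238 was represented by a repeat of the unit GAGGCA, the complement of the unit at the Klf10 flank. The fourth-largest, with 235 regions, had a GC content of 63.2% and a median of 1054 copies. A family of 61 regions aligned to no shared region, and a family of 43 lay on chromosome 14 alone. No repeat annotation was used here, so the families carry no repeat names.

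The chromosomes differed in how many of these regions they held. Chromosome 8 had 1073, or 8.29 per Mb against 2.44 over all chromosomes, which is 16.7% of the regions on 4.91% of the bases. With all copy numbers included, this 16.7% compares with 8.77% of shared and 7.14% of cell-only regions. The chromosome-only regions within 1 kb of a protein-coding start had 10.996% on chromosome 8. Of all peaks, the sorted-chromosome lists had 8.67% to 10.8% there and the cell lists 6.46% to 9.02%. Of the single-copy chromosome-only distal regions 18.8% lay on chromosome 8. For the chromosome-only distal regions of any copy number the share was similar in the 4 libraries (17.5% and 17.3% in WT, 16% and 17.4% in Suv39h dn). It rose from 9.11% of the regions called in 1 library to 20.3% of those called in 4. Along chromosome 8 the fullest 10 Mb bins were 20 to 30 Mb with 170 regions, of which 64 were single copy, and 120 to 130 Mb with 160, of which 143 were. Chromosome 11 followed with 520 regions (4.26 per Mb) and chromosome 17 with 374 (3.94 per Mb). The lowest densities were 0.760 per Mb on X (130 regions, only 10 of them single copy), 1.21 on chromosome 12 and 1.39 on chromosome 2. Both lines were male, with 1 X, and the part of this in the low density on X was not tested.
The local background also differed between chromosomes. Among the chromosomes named here its order was that of the densities in each of the 4 sorted-chromosome libraries. The median background that MACS2 set under the peaks of chromosome 8 was 1.47 to 1.57 times the median over all peaks in the 4 sorted-chromosome libraries and 1.25 to 1.48 times in the 8 cell libraries. On chromosome 11 the ratios were 1.34 to 1.5 and 1.06 to 1.41, and on X 0.624 to 0.838 and 0.708 to 0.890. In the sorted-chromosome libraries they were 1.09 to 1.19 on chromosome 17, 0.840 to 0.936 on chromosome 12 and 0.970 to 1.0 on chromosome 2. The X medians of the 4 sorted-chromosome libraries were the lowest background of each list. The ratio and last place of X there thus rest on that floor. In WT library 2 the chromosome-only regions of chromosome 8 had a median background of 0.773 fragments per base against 0.449 for those elsewhere, and 9 against 7 fragments at the summit. The part of the background in the uneven densities was not tested.

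**Figure D5:**
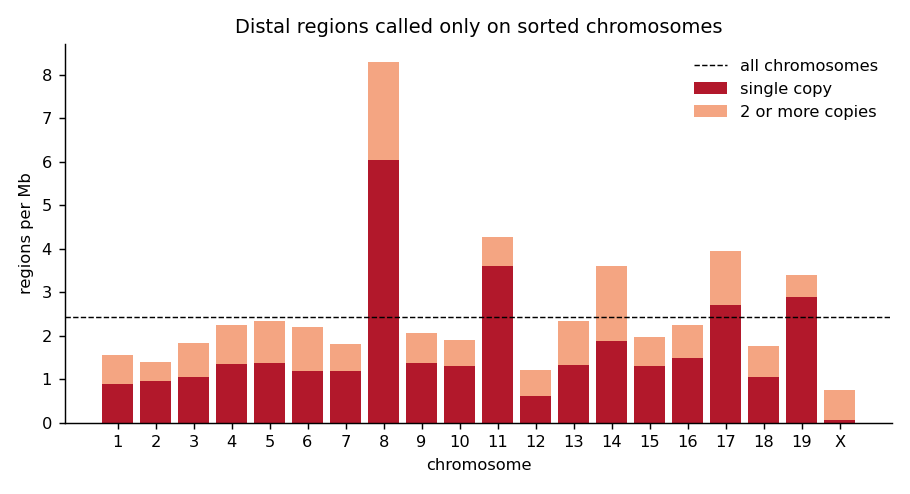
Chromosome-only distal regions per Mb (y axis) on each chromosome (x axis), split into single-copy regions (dark) and regions with 2 or more copies (light), with the density over all chromosomes as a dashed line. Chromosome 8 reaches 8.29 per Mb, and on X, at 0.760 per Mb, nearly all regions have 2 or more copies.

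Beyond the 1 kb that the rule left out, the distance to genes varied widely. The median distance to a protein-coding start was 28.1 kb (quartiles 8.92 and 94.2 kb), with 946 regions within 5 kb and 1546 (24.1%) beyond 100 kb. Shared regions lay at a median of 69.8 kb and cell-only regions at 22.9 kb, and the difference from shared regions was -42.0 kb on average over the 4 libraries (SD 1.28, same sign in 4 of 4, exact sign-flip permutation p = 0.125) and -26.2 kb at a q-value of at most 1e-05. Here too the libraries share most of the regions by the rule, so their agreement was largely given. Just inside the 1 kb limit were regions 1004 bp from the start of Bhlhe23 and 1005 bp from those of AU022751 and Znrf3, and just outside it regions 994 bp from Cables1 and 990 bp from Cnnm1 and Pisd. The summit lay in an exon of a protein-coding gene in 572 regions (8.91%), against 3.46% of cell-only and 2.26% of shared regions and 3.64% of the genome's bases. It lay in an intron of such a gene in 2069 (32.2%), in an exon or intron of another gene in 196 and 509, and between genes in 3076 (47.9%).
A protein-coding gene held at least 1 of the regions in 1906 of 21728 cases, and 2.55 regions per Mb of gene body were close to the 2.44 of the genome. The gene model with the most, 99, was Gm20388 on chromosome 8, which spans 4435 kb and overlaps many other genes. Sfi1, which encodes a centrosomal protein that binds centrin, held 31 within 61.6 kb on chromosome 11. C130026I21Rik on chromosome 1 and Zfhx3, a homeodomain transcription factor gene on chromosome 8, held 16 each, of which 13 and 0 had 2 or more copies. Myo16, an unconventional myosin gene, and Osbp2 held 10 each, and Arid1b, Cdh13, Fam155a, Gse1 and Pitpnc1 8 each. Gm37013, Gm37388 and Gm42416 overlap one another on chromosome 18 and each held 11.
The densest 100 kb window, chr11:3100001-3200000 with Sfi1 and Drg1, held 42 chromosome-only regions and 10 shared ones. Its peaks stood on a background unlike that elsewhere. The median background of its chromosome-only regions was 13.5 and 19.6 fragments per base for WT against 16.4 and 20.6 for Suv39h dn, and the median fold enrichment 3.07, 2.73, 2.90 and 2.60. The cell libraries had 9 to 32 peaks of their own in this window, and the sorted-chromosome libraries 72 to 77. The next windows, chr8:20300001-20400000 and chr8:20000001-20100000, held 21 and 20 regions, of which 21 and 17 had 2 or more copies. Most regions stood alone, since 3565 (55.5%) had no other in their window.

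Gene groups chosen for this tissue were short in all, apart from long synaptic and adhesion genes. Few regions are thus to be found in the short groups at the 2.55 per Mb of protein-coding genes. None of the 20 pluripotency factor genes, 39 Hox genes and 67 histone (Hist) genes held a chromosome-only distal region in its body, over spans of 0.640, 0.340 and 0.111 Mb. Of 17 genes for H3K9 methylation and HP1 proteins only Atf7ip, which encodes a partner of the methyltransferase Setdb1, held 1. Of 26 Polycomb genes only Kdm2b, whose protein binds unmethylated CG-rich DNA, held 1, and of 21 genes for mitotic chromosome structure only Pds5b, a cohesin regulator gene, with 2. These last lists span 0.710, 1.02 and 1.49 Mb. Among 30 long synaptic and adhesion genes, which span 39.6 Mb, 17 held 40 regions. That is 1.0 per Mb, below the 2.55 of protein-coding genes, with 7 in the glypican gene Gpc5, 5 in Csmd1 and 4 in Gpc6.
Larger gene families ranged widely around the density of all protein-coding genes. The 397 Zfp genes, named for zinc fingers, held 56 regions in 44 genes, or 4.22 per Mb. The 1134 olfactory receptor (Olfr) genes, which span 7.67 Mb, held 1, in Olfr323 (0.130 per Mb). The vomeronasal Vmn1r and Vmn2r genes held 1 and 3 (0.640 and 0.816 per Mb). Transporter genes of the Slc family held 45 regions (2.21 per Mb), potassium channel genes named Kcn 26 (2.50 per Mb) with 5 in Kcnj6, and cytochrome P450 (Cyp) genes 7. The clustered protocadherins, whose gene bodies overlap on chromosome 18, held 2 (Pcdha), 6 (Pcdhb) and 3 (Pcdhg). The Pcdhb genes span only 0.0927 Mb, so their few regions make 64.7 per Mb. No density is given for Pcdha and Pcdhg, whose overlapping bodies repeat the same bases.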

How the data were processed

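ATAC-seq peak lists of 12 libraries were analysed, with groups taken from the sample labels. Per the study's Methods and the submitters' processing notes, the authors trimmed reads (Trim Galore 0.4.4), aligned them to mm10 with Bowtie2 2.2.9, discarded duplicates and mitochondrial alignments, used deepTools to offset the ends and extract nucleosome-free fragments, and ran MACS2 on single libraries. The removal of blacklisted regions is also stated, and whether the deposited lists include it was not checked. Each deposited list gives per peak a fold enrichment (ratio of pileup to background), the −log10 of the p-value and q-value, a score and the summit. The lists hold no read totals. Fragments and background at a summit were recovered from the fold and the p-value (100% of peaks with −log10 p under 60, within 0.01). The lowest background, 0.149 to 0.328 fragments per base, served as relative depth.

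Peaks were merged over all libraries, and starts came from GENCODE. Windows were read from GRCm38, motifs sought on both strands, 31-base words counted over the autosomes and X, and windows aligned with BLAST+ 2.17.0. Calculations used Python 3.11.15, numpy 2.4.6, scipy 1.17.1, pandas 2.3.3 and matplotlib 3.10.9. Genotypes are described without a test, since the exact permutation test planned would use the calls that chose the regions, and sets of regions were compared within libraries by exact two-sided sign flips. These flips see only the spread between libraries that share most of the regions. Regions were never treated as replicates in a test. Intervals are exact binomial at 95% and count regions as independent trials. Many regions align to each other, so these intervals may be too narrow.

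The members, gene lists and motifs were chosen with earlier results of these data known, and the tandem-repeat and background measures after the sequences had been seen. Regions were named by rule: the 10 called in all 4 libraries with the highest mean percentile of fold, the 3 strongest called in both libraries of 1 genotype and 1 of the other, the 3 longest, those nearest the 1 kb limit, the 10 protein-coding genes and 3 windows with the most members, list genes with a member and the 3 fullest and emptiest chromosomes. Some items named by that rule are left out. The functions were tested on simulated lists, in which 200 of 200 planted regions were recovered. The planted regions were already merged and met the rule, so this checks the code and not real peaks with shifted edges. Alternatives were a stricter q, equal list lengths, other limits of overlap, distance and libraries, a replicate block and leaving out each library.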

Additional observations from a re-analysis of the deposited data

How the results depend on the processing

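The number of chromosome-only distal regions depended on the calls. It was 6422 as reported, 845 with peaks at a q-value of at most 1e-05, 1880 with all 4 sorted-chromosome libraries required and 3235 when peaks had to cover at least 50% of a region. Leaving out each library in turn gave 2431 to 7442, and leaving out 1 sorted-chromosome library, with the other 3 all required, 2431 (WT library 2) to 3489 (WT library 1). Equal list lengths (5124), no cell peak within 500 bp (5387), limits of 500 bp (6999) and 5 kb (5476) and the starts of all transcripts (5863) moved it by less than 1.5 times.

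The genotype differences had no stable sign. The difference in the share called, Suv39h dn minus WT, was 6.15 points at the stricter q-value, 7.37 without WT library 2 and 2.17 without Suv39h dn library 2, with a range of -8.74 to 7.37 over the libraries left out. The difference in mean log2 fold was -0.00015 at the stricter q-value, -0.0458 without WT library 1 and -0.0066 without Suv39h dn library 2, with a range of -0.0458 to 0.11. With the replicate number as a block, the values were -0.685 points and 0.03, given without a test because the rule used the same calls. The labels give groups the same numbers but no pairing, and the deviations of the libraries numbered 1 correlated at 0.0395. The GC difference from shared regions turned to 1.53 points at the stricter q-value, and the cause was not tested. The differences in CG ratio, masked share and distance kept their sign in all 20 alternatives, but at the stricter q-value the masked share moved from -35.7 to -11.1 points and the distance from -42.0 to -26.2 kb. A summit rests on a median of 6 to 8 fragments, so the absence of a peak in cells does not show closed chromatin.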
